A study of Mus musculus with 6 samples.

Results

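The genes described here are 10 markers of pulmonary surfactant and of the alveolar type II cell that makes it, out of 47729 genes counted in lung endothelial cells (ECs). They were taken from a fixed list of names (Sftpa1, Sftpb, Sftpc, Sftpd, Lamp3, Abca3, Napsa, Lpcat1, Slc34a2 and Etv5), and each was matched to its row through its Ensembl identifier. No value from these libraries entered the choice, although it was made with earlier results of these data known. All 10 were among the 14625 genes with enough counts to be tested. RNA-seq compared 3 libraries from wild-type (WT) mice with 3 from leene-knockout (KO) mice. Both groups were male mice, 14 weeks old, fed normal chow and infused with angiotensin II (AngII), a peptide that raises blood pressure, at 1000 ng/kg/min for 2 weeks through a subcutaneous osmotic pump. The KO mice carry a global CRISPR deletion, on the C57BL6 background, of the region syntenic to the human long noncoding RNA gene LINC00520 (LEENE), which is missing from every cell type and holds 3 noncoding RNA genes. By qPCR of heart and aorta, the paper reports strongly decreased Gm41148, the putative mouse leene, in KO. It found no significant difference for Gm49302 and Gm35360, the other genes of the region. The genes of the region were not analysed here, so that the genotype labels were not checked against them.

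The sample labels describe cells enriched on CD31 (PECAM1) and pooled from 3 mice per group, whereas the methods of the study describe collagenase digestion of the lung and sorting on magnetic beads through CD144 (VE-cadherin). It was not settled if each library is a pool or a single mouse, so that n counts libraries and p-values measure only the spread between these libraries, which may be technical. Total counts lay between 24464324 and 35184063 per library. The mitochondrial share of the counts was 37.4%, 38.5% and 54.5% in WT and 46.2%, 40.4% and 38.2% in KO. Levels are given as CPM, the usual counts relative to library size, here after TMM scaling of the libraries. Of 15 EC markers, none was at 0 in all libraries, and their summed level ranged from 2455 to 4420 CPM in WT and from 2762 to 4432 CPM in KO. The labelled cell type was therefore present in every library, but so were the 10 surfactant genes, whose summed level exceeded that of the EC markers 2.3-fold to 17.7-fold in WT and 9.42-fold to 18.4-fold in KO.

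Pulmonary surfactant is a film of phospholipids and a few dedicated proteins that lowers surface tension at the air side of the alveolus. It is made by alveolar type II cells, cuboidal epithelial cells that lie against the capillary endothelium, store surfactant in lysosome-related lamellar bodies and release it by exocytosis. ECs are not a known source of these proteins. In RNA from a bulk sample, fewer cells of a type and less RNA per cell cannot be told apart, and this holds for every value below.

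Of the 10 genes, 7 have a promoter entry in the RefSeq table used here (build GRCm38.p6). The 250 bases before the start were searched on both strands for 4 motifs of factors known from type II cells: CAAGTG (the core of NKX2-1 sites), TGTTTAC or TGTTTGC (FOXA core), TTGCNNAA (C/EBP) and CCGGAAGT (ETS, the family of Etv5). Promoters with a match in the first listed start of the gene are shown 5′ to 3′ on the strand of the gene, so that the letters behind each match can be seen. Capitals mark the matches, which do not overlap each other.
Sftpa1 promoter, chr14:41131538-41131787, plus strand: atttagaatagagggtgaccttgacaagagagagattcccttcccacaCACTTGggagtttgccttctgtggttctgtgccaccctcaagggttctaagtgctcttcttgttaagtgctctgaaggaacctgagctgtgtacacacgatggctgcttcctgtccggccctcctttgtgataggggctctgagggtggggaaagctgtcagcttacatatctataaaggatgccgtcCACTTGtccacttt
Sftpb promoter, chr6:72304360-72304609, plus strand: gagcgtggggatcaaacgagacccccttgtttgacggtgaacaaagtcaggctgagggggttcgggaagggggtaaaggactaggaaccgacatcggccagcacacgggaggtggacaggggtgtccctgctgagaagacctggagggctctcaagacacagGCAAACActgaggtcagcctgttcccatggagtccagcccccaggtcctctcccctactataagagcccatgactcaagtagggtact
Lamp3 promoter, chr16:19706366-19706615, minus strand: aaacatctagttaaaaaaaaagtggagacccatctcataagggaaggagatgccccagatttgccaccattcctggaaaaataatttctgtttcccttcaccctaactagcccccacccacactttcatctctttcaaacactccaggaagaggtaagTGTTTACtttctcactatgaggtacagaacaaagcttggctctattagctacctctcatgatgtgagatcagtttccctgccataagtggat
Slc34a2 promoter, chr5:53049103-53049352, plus strand: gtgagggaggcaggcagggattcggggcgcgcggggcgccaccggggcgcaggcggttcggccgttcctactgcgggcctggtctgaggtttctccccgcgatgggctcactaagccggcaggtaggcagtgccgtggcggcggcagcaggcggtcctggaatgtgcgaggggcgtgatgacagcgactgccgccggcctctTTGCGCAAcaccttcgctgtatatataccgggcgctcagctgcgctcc
Etv5 promoter, chr16:22439571-22439820, minus strand: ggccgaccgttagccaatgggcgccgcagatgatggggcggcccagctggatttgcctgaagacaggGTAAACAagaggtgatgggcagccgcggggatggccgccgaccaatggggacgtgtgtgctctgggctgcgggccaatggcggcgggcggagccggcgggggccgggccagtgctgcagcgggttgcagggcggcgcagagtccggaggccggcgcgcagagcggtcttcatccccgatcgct
Sftpa1 alone of the 7 held the NKX2-1 core, with 2 matches, of which the upstream one begins 202 bases before the RefSeq start. That core was found in 11.6% of the 32851 promoters of the table. The FOXA core was found in Sftpb, Lamp3 and Etv5, 88, 92 and 183 bases before the start, and in 7.29% of all promoters. Slc34a2 held the C/EBP motif 48 bases before its RefSeq start, which 9.56% of all promoters hold. That window lies inside Slc34a2 as the counted annotation places the gene. The RefSeq start equals that of the counted annotation for Sftpb and Lamp3 and differs from it for Sftpa1, Abca3, Lpcat1, Slc34a2 and Etv5. The ETS motif was in none of the 7 windows and in 2.88% of all promoters. No motif was shared by all 7, and Abca3 and Lpcat1 held none of these letters in this window. Binding was not measured, and a match is a description of the sequence.

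The surfactant proteins were the most abundant of the 10 genes. Sftpc, which encodes the small hydrophobic surfactant protein C (chr14:70520941-70524081, minus strand, GRCm38), had 2051, 24029 and 7562 CPM in WT (replicates 1, 2 and 3, the order used throughout) and 19809, 23835 and 19840 CPM in KO. WT replicate 2 stood above all KO libraries, whereas the other WT libraries were below all of them, so that the groups overlapped. By CPM per kb of exon, Sftpc ranked between 7 and 14 among all genes counted in WT and between 8 and 9 in KO, in cells sorted for an endothelial antigen. The fitted difference was 0.92 on the log2 scale with a standard error (SE) of 0.82 (KO over WT), which did not pass the edgeR quasi-likelihood test (adjusted p = 0.695).

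Sftpb (chr6:72304610-72314371, plus strand) encodes the hydrophobic surfactant protein B, which is needed to spread the lipid film. It had 1545, 10051 and 3240 CPM in WT and 7525, 9740 and 8054 CPM in KO. The order of the libraries was the same as for Sftpc, with WT replicate 1 lowest and WT replicate 2 highest. Sftpb differed by 0.77 (SE 0.66) on the log2 scale between genotypes, which did not pass the edgeR test (adjusted p = 0.68).

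Sftpa1 and Sftpd encode surfactant proteins A and D, the collectins that bind microbial sugars in the airspace. They lie close together on chromosome 14, Sftpa1 at chr14:41131782-41136452 on the plus strand and Sftpd at chr14:41172212-41185198 on the minus strand. Sftpa1 had 882, 7793 and 2276 CPM in WT and 6032, 7637 and 5610 CPM in KO. Sftpd had 311, 2435 and 810 CPM in WT and 1978, 2169 and 1715 CPM in KO. Both genes were again highest in WT replicate 2 and lowest in WT replicate 1. The log2 differences were 0.82 (SE 0.72) for Sftpa1 and 0.72 (SE 0.65) for Sftpd, and neither passed the edgeR test (adjusted p = 0.689 and 0.695). These genes and Sftpc lie on the chromosome of the deleted region, at distances of 6.65 Mb for Sftpa1, 6.61 Mb for Sftpd and 22.72 Mb for Sftpc from the putative mouse leene gene Gm41148.

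The genes of the lamellar body followed the same pattern. Lamp3 (chr16:19653381-19706365) encodes a membrane protein of lamellar bodies. Its level was 145, 2082 and 517 CPM in WT against 1363, 1569 and 1347 CPM in KO. Abca3 (chr17:24351950-24410201) encodes the transporter that carries phospholipid into these bodies. It had 143, 715 and 233 CPM in WT and 648, 735 and 521 CPM in KO. Napsa (chr7:44572380-44586862) encodes napsin A, an aspartic protease that helps to process pro-surfactant protein B. It was counted at 161, 1856 and 525 CPM in WT and at 1291, 1683 and 1558 CPM in KO. Lpcat1 (chr13:73467197-73516422), the acyltransferase that remodels phosphatidylcholine into its surfactant form, had 60.7, 396 and 153 CPM in WT and 413, 374 and 283 CPM in KO. WT replicate 2 exceeded every KO library for Lamp3 and Napsa and lay within the KO range for Abca3 and Lpcat1. The log2 differences between genotypes were 0.64 (SE 0.79) for Lamp3, 0.80 (SE 0.54) for Abca3, 0.83 (SE 0.74) for Napsa and 0.81 (SE 0.58) for Lpcat1. None of these differences passed the edgeR test (adjusted p = 0.772, 0.619, 0.689 and 0.633).

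Slc34a2 (chr5:53038081-53071664) encodes the sodium-phosphate cotransporter on the apical side of type II cells. It had 339.9, 3537 and 985 CPM in WT and 2654, 2938 and 2230 CPM in KO, with WT replicate 2 again above and the other WT libraries below all of KO. Its log2 difference was 0.69 (SE 0.73), which did not pass the edgeR test (adjusted p = 0.74).

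Etv5 (chr16:22381309-22439719), an ETS transcription factor downstream of FGF and RAS signaling that maintains type II cell identity, was by far the least abundant. It had 10.6, 18.8 and 12.2 CPM in WT and 18.6, 17.0 and 16.2 CPM in KO, from 261 to 640 counts per library. The order of the WT libraries was that of the other genes, but the distances between them were much smaller. Its log2 difference was 0.32 (SE 0.22), which did not pass the edgeR test (adjusted p = 0.629).

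**Figure D1:**
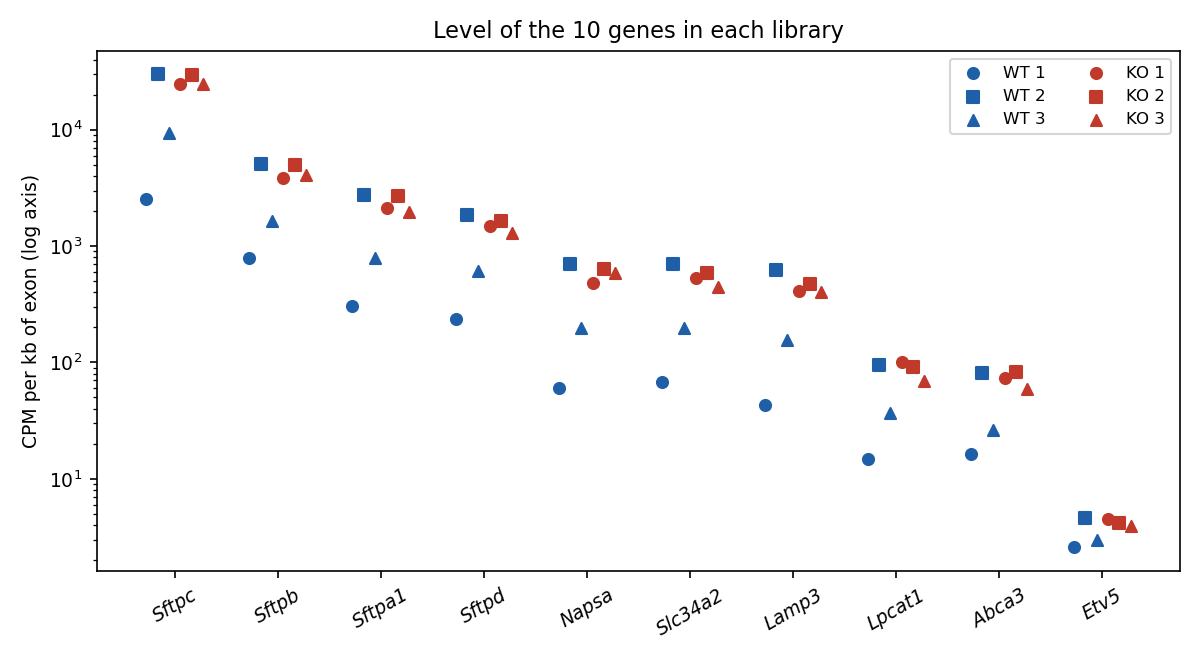
Level of each of the 10 genes in each library, in CPM per kb of exon on a log axis, with WT in blue and KO in red and 1 symbol per replicate number. For each gene WT replicates 1 and 3 lie below the 3 KO libraries, and WT replicate 2 lies within or above them.

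Per kb of exon, the order of the 10 genes was almost the same in both genotypes. In KO, Sftpc led with 26320.1 ± 2880.3 CPM per kb (SD, n = 3), followed by Sftpb with 4288 ± 588, Sftpa1 with 2247 ± 374 and Sftpd with 1474 ± 172. These 4 neighbours did not overlap in KO. Napsa (568 ± 75.4), Slc34a2 (520.1 ± 71.1) and Lamp3 (427 ± 37.0) came next, and in this group the values of Napsa and Slc34a2 overlapped, as did those of Slc34a2 and Lamp3. Lpcat1 (86.4 ± 16.1) and Abca3 (72.2 ± 12.2) also overlapped, and Etv5 (4.21 ± 0.301) was lowest. In WT the means ran from 13948 CPM per kb for Sftpc to 3.38 CPM per kb for Etv5, with Slc34a2 (323) just ahead of Napsa (319). Every neighbouring pair in this order overlapped over the WT libraries, except Abca3 and Etv5. Such ranges ignore that all genes were counted in the same libraries. Within each WT library Sftpc exceeded Sftpb (2552 against 785, 29887 against 5107 and 9405 against 1646 CPM per kb). Sftpb, Sftpa1 and Sftpd also kept their order in each of them.

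The spread between libraries was far larger in WT than in KO. Over the 3 WT libraries the SD was 31.3% of the mean for Etv5 and between 84.5% and 112% for the other genes. Over the 3 KO libraries it was between 7.14% (Etv5) and 18.6% (Lpcat1). Over all 6 libraries, the SD of log2 CPM was between 0.985 (Abca3) and 1.44 (Lamp3) for 9 genes, where the median gene had 0.304. From 1.59% (Lamp3) to 5.83% (Abca3) of all genes tested varied more than these 9, whereas 45.2% varied more than Etv5, which had an SD of 0.341.

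Compared across genotypes, all 10 genes had a higher mean in KO, with log2 differences of 0.32 to 0.92 and a median of 0.79 (0.03 over all genes tested). None of the 10 passed an adjusted p of 0.05 in the edgeR test, none had an unadjusted p under 0.05, and DESeq2 called none either. Over all genes, the edgeR test called 0.109% and DESeq2 called 1.21%. WT and KO did not overlap for 0 of the 10 genes, beside 17.8% of all genes tested. WT replicates 1 and 3 were below every KO library for 10 of 10, while WT replicate 2 was above every KO library for 8 and within the KO range for 2. The share of all genes tested with this arrangement was not computed. The 10 genes largely moved together from library to library, so that these counts do not stand for 10 independent observations. WT replicate 2 was the highest WT library for each of the 10 genes, so that leaving it out raises their differences by construction. Calls made that way do not support a higher level in KO. Without it, the log2 differences rose to between 0.56 and 2.11 (median 1.86). Of the 10 genes, 3 then passed the edgeR test: Abca3 (log2 difference 1.72, adjusted p = 0.0245), Lpcat1 (1.71, adjusted p = 0.0469) and Napsa (2.11, adjusted p = 0.0479). The adjusted p of the other 7 lay between 0.0507 and 0.0968 in edgeR. Leaving this library out raised the calls over all genes to 5.29%, of which those higher in KO made up 4.41% of genes tested. Without WT replicate 1, the lowest library, the median difference of the 10 genes fell to 0.34 instead, and none was called by edgeR.

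**Figure D2:**
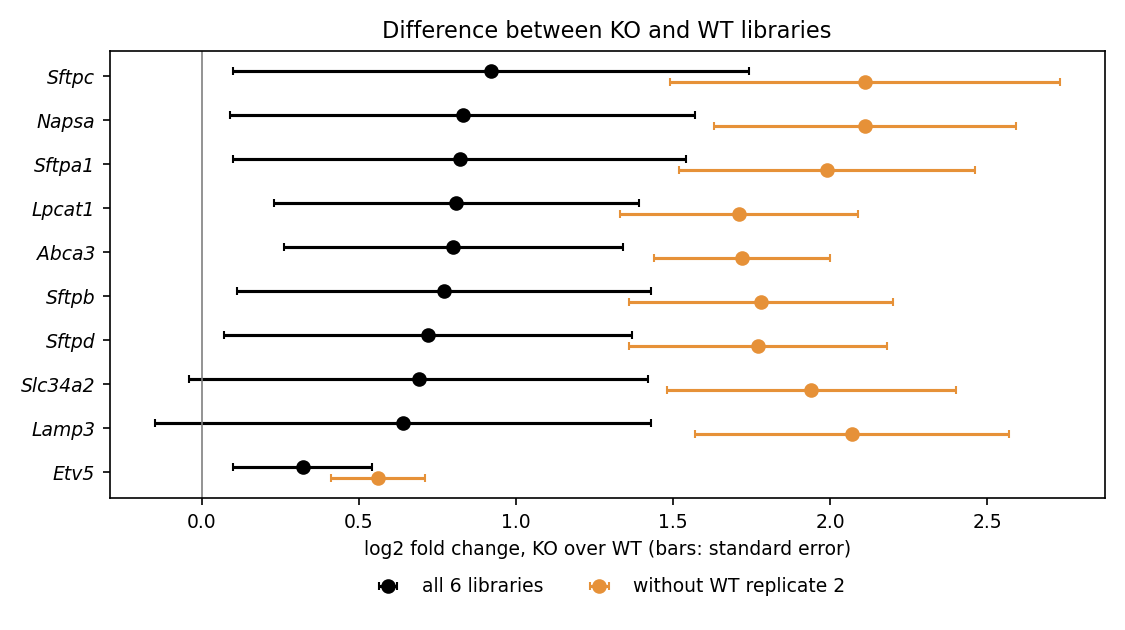
Log2 fold change of KO over WT for each gene from the edgeR fit, with bars of 1 standard error, in all 6 libraries (black) and without WT replicate 2 (orange). All 10 values are above 0, between 0.32 and 0.92 with all libraries and between 0.56 and 2.11 without that library.

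Since the level of each gene moved from library to library, it was next asked whether 1 factor per library could carry all 10. The factor was taken as the mean over the 10 genes of each gene's log2 CPM minus its own mean over the 6 libraries. In WT it was -2.01, 0.89 and -0.70, by replicate number, and in KO it was 0.59, 0.77 and 0.46. On the linear scale these are 0.249, 1.85 and 0.614 times the gene's geometric mean in WT and 1.51, 1.70 and 1.38 times in KO. The lowest and highest libraries were therefore both WT. WT replicate 1 also had the highest TMM scaling factor, 1.37 beside 0.874 to 1.04 in the other libraries, the part of which was not tested. With total counts alone, the median log2 difference of the 10 genes was 0.72. This single number per library, a mean of the same 10 genes, took 92.4% of their variance over the libraries. Computed alike for the lists of other genes described below, the share ran from 4.76% (FGF receptor to ETV5) to 88.7% (club cells). It was 85.7% for B cells. What the factor of the 10 genes left had an SD of 0.343 on the log2 scale. The counting error was 0.0244, which does not include the spread between libraries.

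What was left changed most when Etv5 or WT replicate 1 was left out. Without Etv5, the factor took 97.6% of the variance of the other 9 genes and left an SD of 0.202. With all 10 genes but without WT replicate 1, the SD left was 0.181, while the share taken was 93.4%, close to that with all libraries. When each gene was regressed on the factor of the other 9 over the 6 libraries, the slope was 0.27 for Etv5, and leaving out each library in turn moved it only between 0.25 and 0.35. A slope of 1 would mean that a gene moved in full proportion to the others. Sftpd (1.01), Sftpb (0.94) and Lpcat1 (0.94) were closest to it, Sftpa1 (1.11) and Slc34a2 (1.15) were slightly steeper. With libraries left out, Sftpd (0.98 to 1.02) and Sftpb (0.93 to 1.04) fell on both sides of 1. The factor behind each of these slopes includes Etv5, so that the position of a gene around 1 depends on including it. The slope of Abca3 (0.84) moved between 0.80 and 1.07 when libraries were left out, so that its side of 1 rested on 1 library. The steepest were Napsa (1.24, from 1.14 to 1.27), Sftpc (1.27, from 1.09 to 1.30) and Lamp3 (1.30, from 1.19 to 1.32).

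The steps between libraries also differed from gene to gene within WT, where genotype and treatment were the same. From WT replicate 1 to WT replicate 2 the CPM of Etv5 rose 1.77-fold (95% exact counting interval 1.57 to 2.01), where the median of all genes was 1.01-fold and 20.1% of genes exceeded Etv5. The same step was 4.99-fold for Abca3 (4.85 to 5.14) and 14.3-fold for Lamp3 (14.0 to 14.7). Between these lay Sftpb with 6.50-fold, Lpcat1 with 6.53-fold, Sftpd with 7.84-fold, Sftpa1 with 8.84-fold, Slc34a2 with 10.4-fold, Napsa with 11.5-fold and Sftpc with 11.7-fold. The intervals of Sftpb and Lpcat1 overlapped, as did those of Napsa and Sftpc, and the other neighbours were separated. These intervals cover counting error only, with no replicate of the step. From WT replicate 3 to WT replicate 2 the folds were closer together, from 2.59 (Lpcat1) to 4.03 (Lamp3) for 9 genes, and 1.54 (1.33 to 1.78) for Etv5. Between KO replicates 3 and 2, whose factors were similar, the folds ran from 1.05 (Etv5, interval 0.924 to 1.2) to 1.41 (Abca3).

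**Figure D3:**
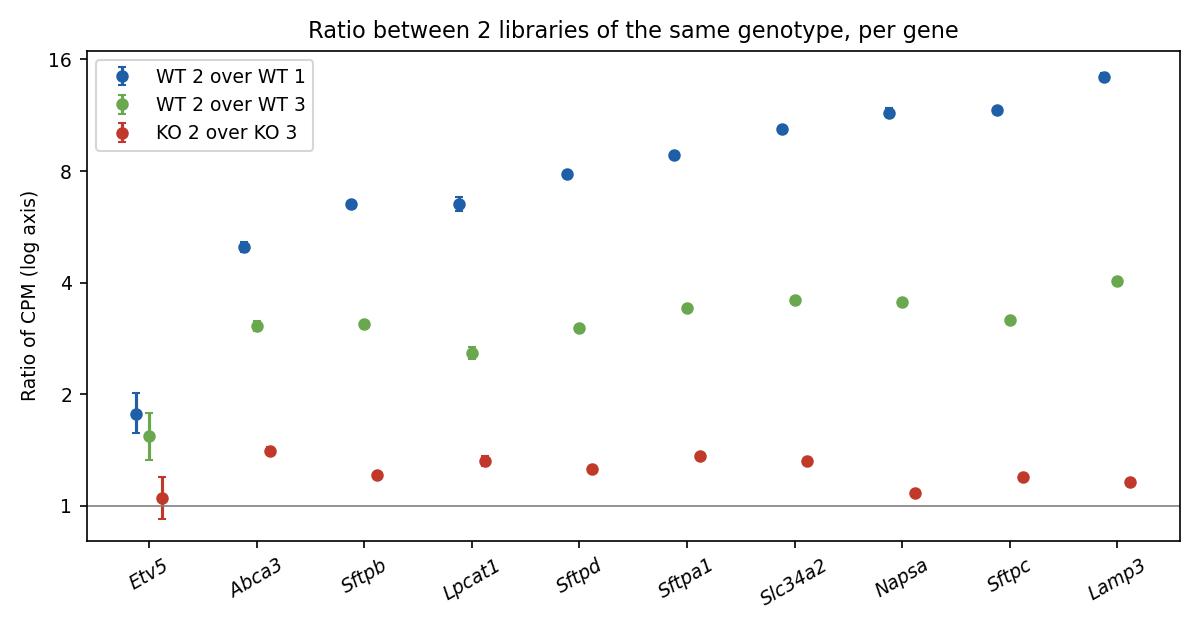
Ratio of CPM between pairs of libraries of the same genotype for each gene on a log axis, with 95% exact counting intervals as bars, ordered by the ratio of WT replicate 2 to WT replicate 1. That ratio runs from 1.77 (Etv5) to 14.3 (Lamp3), whereas the ratio of KO replicate 2 to KO replicate 3 stays between 1.05 and 1.41.

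Ratios between the genes removed the part of the shared factor that both genes followed alike. Where the slopes of 2 genes differed, part of the library factor stayed in their ratio. Per kb of exon, the ratio of Sftpc to Sftpb was 3.25 in WT replicate 1, 5.85 and 5.71 in the other WT libraries, and 6.44, 5.99 and 6.03 in KO. The ratio of Sftpa1 to Sftpd, the collectin pair, stayed between 1.30 and 1.63 in all 6 libraries. Sftpc was 42.1 to 50.8 times as abundant as Napsa per kb, and 48.0 to 63.2 times as abundant as Lamp3. Lamp3 was 2.67 times as abundant as Abca3 in WT replicate 1 but 5.53 to 7.66 times in the other libraries, and Lpcat1 was 0.903 to 1.4 times as abundant as Abca3. WT replicate 1, the library with the lowest factor, had the lowest ratio of Sftpc to Sftpb, of Lamp3 to Abca3 and of Lpcat1 to Abca3. The lowest ratio was in WT replicate 2 for Sftpc to Lamp3, in WT replicate 3 for Sftpa1 to Sftpd, and in WT replicate 1 and KO replicate 3 alike for Sftpc to Napsa.

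Relative to the other 9 genes, Sftpc was the only gene whose WT and KO libraries did not overlap. Its log2 ratio to them, centred over the libraries, was -0.64, 0.08 and 0.00 in WT and 0.11, 0.21 and 0.25 in KO. The difference of 0.38 had p = 0.1 in the two-sided exact permutation test, the smallest that 3 against 3 libraries can give. Of all genes tested, 9.13% did not overlap after the same factor was subtracted, so that 1 of 10 is near the background. Etv5 had the widest difference, -0.95, but its libraries overlapped (1.65, -0.65 and 0.43 in WT and -0.33, -0.67 and -0.42 in KO, exact permutation p = 0.3). For the other 8 genes, the differences lay between -0.10 (Abca3) and 0.29 (Napsa). A gene whose slope on the others differs from 1 keeps part of the library factor in such a ratio. This holds for Etv5 (slope 0.27) and Sftpc (slope 1.27). Their differences between genotypes therefore cannot be told apart from what is left of that factor.

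Genes outside the 10 were read from lists of other type II genes and of pathways and cell types. Scd1, Ctsh, Fgfr2, Cldn18, Srebf1, Etv4 and Hopx are on several of these lists. They are counted in each, so that the lists are not independent of each other. Of 25 other type II genes, 23 had a higher mean in KO, with a median log2 difference of 0.73, and the edgeR test called none. Their library factor was -1.55, 0.68 and -0.48 in WT and 0.45, 0.63 and 0.28 in KO, the same order as that of the surfactant genes with a narrower range. Lyz2, a lysozyme whose near-identical copy Lyz1 makes its count uncertain, had 1428, 13007 and 4549 CPM in WT and 11519, 13362 and 11416 CPM in KO. The chemokine Cxcl15 and the chitinase-like Chil1 had log2 differences of 0.79 and 0.74. Without WT replicate 2, edgeR called 9 of the 25, all higher in KO, among them the MHC class II chaperone Cd74 (log2 difference 1.79, adjusted p = 0.0439). Over all genes tested, that setting called 4.41% higher in KO, the share to set beside the calls of every list below. Where the library left out is the highest WT library of a gene, the difference rises by construction. Such calls, here and below, do not support a higher level in KO. Leaving out any other single library gave only 0 to 24 calls over all genes.

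Genes of surfactant lipid were read as another list, which shares Scd1 and Ctsh with the other type II genes. Of 28 tested genes for the synthesis, processing and secretion of surfactant lipid, 19 had a higher mean in KO with a median log2 difference of 0.18, and edgeR called none with all libraries and 4 without WT replicate 2. The fatty acid elongase Elovl1 had 81.7, 564 and 219 CPM in WT and 649.7, 748 and 631 CPM in KO (log2 difference 1.23, edgeR adjusted p = 0.516, and 2.14 with adjusted p = 0.0326 without WT replicate 2). Scd1, the desaturase that makes monounsaturated fatty acids, had 549.6, 3693 and 1884 CPM in WT and 4034, 3951 and 2673 CPM in KO. The library factor of this list took 33.5% of its variance, beside 76.1% for the other type II genes. Ctsh, a cathepsin that processes surfactant proteins, and Adgrf5, a receptor that limits the surfactant pool, both had a log2 difference of 0.38. Their library patterns differed. Ctsh had 113, 729 and 223 CPM in WT and 455, 522 and 407 CPM in KO. Adgrf5 had 641, 1042 and 1116 CPM in WT and 1425, 1013 and 1215 CPM in KO.

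The pathway upstream of Etv5 did not follow the surfactant genes as a list. Of 16 tested genes between the FGF receptor and ETV5, 7 had a higher mean in KO, the median log2 difference was -0.06 and edgeR called none. The receptor gene Fgfr2, which in the lung is mainly epithelial, had the highest difference of the list, with 32.7, 172 and 51.9 CPM in WT and 198, 245 and 157 CPM in KO. Its log2 difference of 1.23 did not pass the edgeR test (adjusted p = 0.502), but did without WT replicate 2 (2.21, adjusted p = 0.0213). Dusp6, a phosphatase induced by the ERK kinases, lay the other way with 95, 68.8 and 90.2 CPM in WT and 54.6, 43.6 and 50.0 CPM in KO. Its groups did not overlap, but the log2 difference of -0.78 did not pass the edgeR test (adjusted p = 0.249). Without WT replicate 2 Dusp6 was called lower by edgeR (-0.94, adjusted p = 0.0218).

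Alveolar epithelial transcription factors likewise had no common direction. Of 15 tested, 8 had a higher mean in KO, the median log2 difference was 0.00 and edgeR called none. Cebpd, a C/EBP factor also present in ECs and immune cells, had 56.8, 59.8 and 68.0 CPM in WT and 16.3, 21.1 and 27.2 CPM in KO. Its libraries did not overlap and its log2 difference of -1.51 was just outside the edgeR threshold (adjusted p = 0.0524). Without WT replicate 2, edgeR called 1 gene of the list higher and 1 lower, the latter being Cebpd (-1.57, adjusted p = 0.0213). Cebpa, the C/EBP factor needed for type II cell maturation, had 18.9, 36.3 and 26.0 CPM in WT and 31.5, 39.4 and 27.1 CPM in KO, with a log2 difference of 0.27.

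Markers of other lung cells were read beside these values. Club cells, the secretory cells of the airway, had 9 of 9 tested markers with a higher mean in KO (median log2 difference 0.59), none called by edgeR, and a library factor of -0.85, 0.33 and -0.58 in WT and 0.15, 0.81 and 0.14 in KO. Scgb1a1, their main secretory protein, had 9534, 22711 and 13560.4 CPM in WT and 21168, 33706 and 20762 CPM in KO. KO replicate 2 was thus highest for club cells, whereas WT replicate 2 was highest for surfactant genes. Ciliated cell markers were higher in KO for 8 of 11 (median 0.20), type I cell markers for 5 of 12 (median -0.11) and general epithelial markers for 6 of 10 (median 0.25). Macrophage markers, which sum to 170.1 to 458 CPM in WT and 249 to 552 CPM in KO, were higher for 9 of 15. None of these lists held a gene called by edgeR with all libraries. Without WT replicate 2, edgeR called 4 general epithelial markers, among them Epcam (log2 difference 1.47, adjusted p = 0.0284), 2 type I markers, 1 club cell marker and 1 macrophage marker, all higher in KO, and no ciliated marker.

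EC markers did not follow the surfactant factor. Of 15, 10 had a higher mean in KO with a median log2 difference of 0.08, and their library factor was -0.49, -0.19 and 0.40 in WT and 0.38, -0.24 and 0.12 in KO. Cdh5 encodes CD144, the antigen of the sort in the methods of the study, whereas the labels name CD31. Cdh5 had 178, 365 and 578 CPM in WT and 753, 340.3 and 499 CPM in KO. WT replicate 3 was therefore low for surfactant genes and high for EC genes, whereas WT replicate 1 was low for both. The part of each cell population in the differences was not tested. B-cell markers alone held called genes, with Cd79a, Fcrla and Ms4a1 of 8 higher in KO by edgeR, and their factor of -1.51, -1.25 and -0.72 in WT and 1.20, 1.13 and 1.16 in KO separated the genotypes, which that of the surfactant genes did not.

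**Figure D4:**
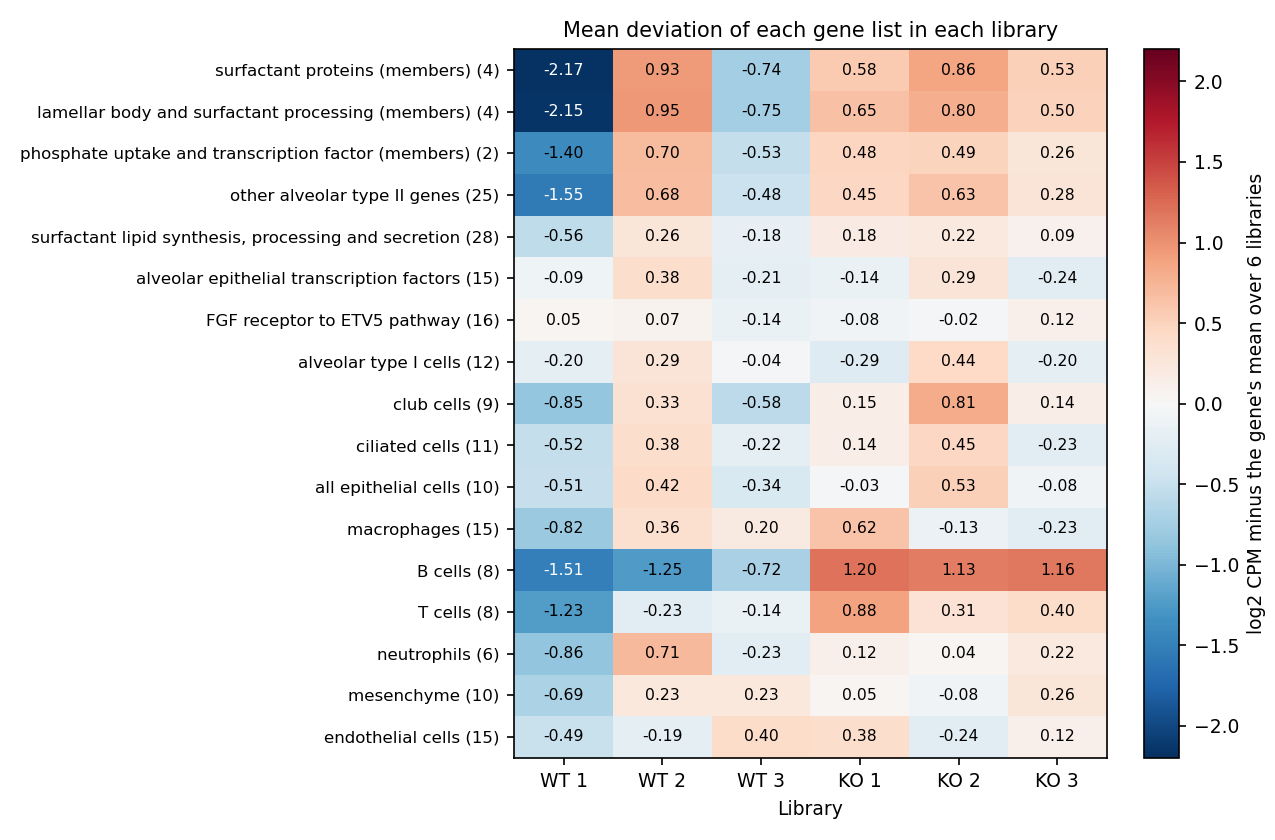
Mean deviation of each gene list in each library, as log2 CPM minus each gene's mean over the 6 libraries (number of tested genes in parentheses), from blue (low) to red (high). The surfactant rows run from about -2 in WT replicate 1 to about 0.9 in WT replicate 2, the other type II genes keep that order, and the EC row does not.

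The genes most like the 10 were found by the Pearson correlation of log2 CPM with the surfactant factor, over the 6 libraries and among 7332 genes with a mean of at least 10 CPM. The 10 highest were Chil1, Bcam, Tpp1, Nrn1, Matn4, Sorcs2, Npc1, Itgav, Dram1 and Cd36, all with r of at least 0.998. In the 4 libraries other than WT replicates 1 and 3, the points farthest from the median, r remained between 0.902 (Dram1 and Cd36) and 0.999 (Chil1). Of these 10 genes, 2 (Chil1 and Dram1) were on the lists of type II genes. Tpp1 encodes a lysosomal peptidase and Npc1 the lysosomal cholesterol transporter, and Cd36 encodes a fatty acid receptor that is also known from capillary ECs. Npc1 had 36.2, 219.5 and 82.6 CPM in WT and 184, 213 and 185 CPM in KO. Cd36 had 480.5, 2036 and 945 CPM in WT and 1699, 2015 and 1738 CPM in KO. Over 6 libraries such values are a weak filter, since 1008 genes (13.7%) had r above 0.9 with the surfactant factor, and all share the libraries and their scaling.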

How the data were processed

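RNA-seq counts per gene were analysed for 3 WT and 3 KO libraries. The labels gave each library's genotype and replicate number. The authors deposited whole-number counts without normalization, 1 table per library, made per the file headers with featureCounts (Subread 2.0.0) on the Ensembl annotation of GRCm38. The submitters' processing notes also name STAR 2.5.4b and bcl2fastq 2.18. The library kit was stranded and reads with several alignments were not counted. All columns of the tables were mapped, and no row lacked a gene.

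Genes were kept by filterByExpr and scaled by TMM, and KO was compared with WT by the quasi-likelihood test of edgeR 4.0.16 (R 4.3.3), with genotype as the only term and Benjamini-Hochberg adjustment over the 14625 genes tested. Genes with an adjusted p under 0.05 are said to be called. The biological coefficient of variation was 0.256. CPM values use TMM-scaled library sizes, log2 CPM a prior count of 0.5, and CPM per kb the exon length in the files. Counts of 261 or more per library for every surfactant gene make counting error small beside the spread between libraries. No 2 libraries agreed within sampling noise (lowest chi-square per degree of freedom, 37). Ratios were compared by two-sided exact permutation (SciPy 1.17.1). The genes and lists were chosen with earlier results of these data known. Besides the 10 genes, the text names from each list up to 4 genes with the highest CPM per kb, called genes, and the 10 genes most correlated with the surfactant factor, of which not all are described. Alternatives were DESeq2 1.42.0, other scalings and filters, no mitochondrial genes, a prior count of 5, the replicate number as a block, and leaving out each library or each surfactant gene.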

Additional observations from a re-analysis of the deposited data

How the results depend on the processing

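Over 13 alternatives, 127 of 130 values of single surfactant genes kept their direction and their side of the threshold, none reversed, and 3 (Abca3, Napsa and Lpcat1) were newly called without WT replicate 2. The number of surfactant genes called was 0 in every other setting, so that leaving out 1 library gave 0 to 3. Their median log2 difference ran from 0.34 (without WT replicate 1) to 1.86 (without WT replicate 2). The SD left by the shared factor ran from 0.181 (without WT replicate 1) to 0.375. The number of all genes called by edgeR was less stable: 16 as reported, 26 with RLE scaling, 123 with total counts alone, 152 with no filter on low counts and 187 with DESeq2. Total counts alone moved the median of all genes to -0.13 and gave 61 calls higher and 62 lower, beside 5 and 11. Leaving out 1 library gave 0 to 791 calls, the highest without WT replicate 2. It was 0 without each KO library, with 992, 986 and 1112 genes at an unadjusted p under 0.05. With the replicate number as a block, edgeR called 0 genes, with 1776 at an unadjusted p under 0.05, and the median difference of the surfactant genes was 1.24. The deviations of same-numbered WT and KO libraries had correlations of -0.0814, 0.219 and 0.0111, beside -0.185 to 0.194 for differently numbered ones. In each genotype, replicate 2 had the highest surfactant sum relative to the EC markers (17.7-fold in WT, 18.4-fold in KO). With 3 libraries per group, it was not settled if the numbers pair the libraries. The cause of the shifts between settings was not tested.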
